A study of Mus musculus with 6 samples.

Results

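The mitochondrial ribosomal protein genes are the nuclear genes whose mouse symbols begin with Mrpl or Mrps followed by a number, pseudogenes left out. The rule found 78 such genes among the 16871 gene numbers in the deposited files. All 78 were listed in each of the 6 libraries and all 78 passed the count filter, so none was lost to low expression. By name, 49 carry Mrpl and 29 carry Mrps. By place, 51 code for proteins of the large subunit, which include Mrps30 and Mrps18a despite their names, and 26 for proteins of the small subunit. Mrps36 belongs to neither, since its product was later found to be a component of the oxoglutarate dehydrogenase complex and was renamed KGD4.

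The cells were macrophages derived in culture from mouse bone marrow, and their RNA was sequenced. DKO cells lacked both ALDH2, the mitochondrial aldehyde dehydrogenase, and the low-density lipoprotein (LDL) receptor, with 3 libraries. LKO cells lacked the LDL receptor alone and served as the control, with 3 libraries. The mice were C57BL/6 aged 8 weeks, and the cells of both genotypes were grown for 7 days and then given oxidised LDL (oxLDL), so the loss of the receptor and the lipoprotein are shared by all libraries. No group without oxLDL was analysed here. Whether each library had its own mouse is not in the labels, and the p-values therefore rest on a spread between libraries that may be technical.

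Mitochondria keep a ribosome of their own. It translates the few messenger RNAs of the mitochondrial genome, all of which code for subunits of the oxidative phosphorylation complexes in the inner membrane. Its RNA is made inside the mitochondrion, but its proteins are coded in the nucleus, made by cytosolic ribosomes and imported. Some of them descend from the proteins of the bacterial ribosome, and others were added in the course of mitochondrial evolution. Of the 78 genes, 45 code for proteins that keep the place of a bacterial ribosomal protein, and 32 for proteins classed as specific to the mitochondrial ribosome. The second class still holds relatives of bacterial proteins, such as Mrps18a and Mrps18b, which are related to the same bacterial protein as Mrps18c, and Mrpl58, which is related to release factors.

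The deletion was visible in the counts of its target. Aldh2 (NCBI gene 11669) had 7.00, 7.06 and 7.34 FPKM (reads scaled to transcript length and library size) in DKO macrophages, against 248.64, 238.56 and 235.61 FPKM in LKO macrophages, so 2.96% of the LKO level was left. Each library held between 10760625 and 10987584 expected counts, the authors' estimates of reads per gene. A mitochondrial ribosomal protein gene had between 27.3 and 958 of them in a library, with a median of 243.1. All 10 macrophage markers were detected, and Lyz2, the highest, averaged 7616 FPKM in DKO and 6105 FPKM in LKO macrophages, where 7 markers of T and natural killer cells summed to 1.69 to 3.36 FPKM in any library. Macrophage markers summed to 11310 to 12506 FPKM in DKO and 10077 to 10792 FPKM in LKO libraries, with 5 of 10 higher and 1 lower. Markers of other cell types differed between the genotypes. The summed FPKM of 12 neutrophil markers was 374.38 to 417.46 in DKO and 580.64 to 641.39 in LKO libraries, with 7 of 11 tested lower. The sum of 7 B cell markers was 78.65 to 86.54 in DKO and 103.12 to 114.77 in LKO libraries, with 5 of 5 tested lower. The sum of 10 stromal markers was 70.63 to 94.73 in DKO and 44.09 to 49.71 in LKO libraries, with 6 of 9 tested higher. No marker of these 3 types was at 0 in a group mean, and the part of such cells in the results was not tested. In a bulk sample, fewer cells of a type and less RNA per cell cannot be told apart.

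Levels of the mitochondrial ribosomal protein genes were nearly alike in the 2 genotypes. In edgeR's quasi-likelihood test across 11809 genes, with Benjamini-Hochberg adjustment and a threshold of 0.05, 3 of the 78 genes fell in DKO macrophages, 0 rose and 75 did not pass. These 3 were Mrpl3, Mrpl19 and Mrpl15, which are 3.85% of the genes, whereas 14.3% of all genes tested were called in either direction, 6.88% lower and 7.42% higher. The count at an unadjusted p under 0.05 was 10, of which 3 were higher and 7 lower, while 25.9% of all genes tested were below that value. DESeq2 called Mrpl3 alone, with 9.30% of its genes called. On log2(FPKM + 1), limma called Mrpl3 and Mrpl9 lower and Mrpl27 higher, with 10.6% of its genes called.

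The middle of the group lay close to no difference. The median log2 fold change (DKO over LKO) was -0.03, with quartiles of -0.09 and 0.05, beside a median of 0.000184 and quartiles of -0.11 and 0.11 over all genes tested. There were 46 negative and 32 positive values, from -0.46 for Mrpl3 to 0.25 for Mrpl55. The 95% interval of the fold change lay within 1.2-fold either way for 37 of the 78 genes, or 47.4%, and for 41.8% of all genes tested. It lay within 1.5-fold for 76 genes, or 97.4%, and for 79.1% of all genes tested. The 2 whose interval reached past 1.5-fold were Mrpl3 and Mrps6. A change of 1.5-fold in either direction thus lay outside the interval of all the others.

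**Figure D1:**
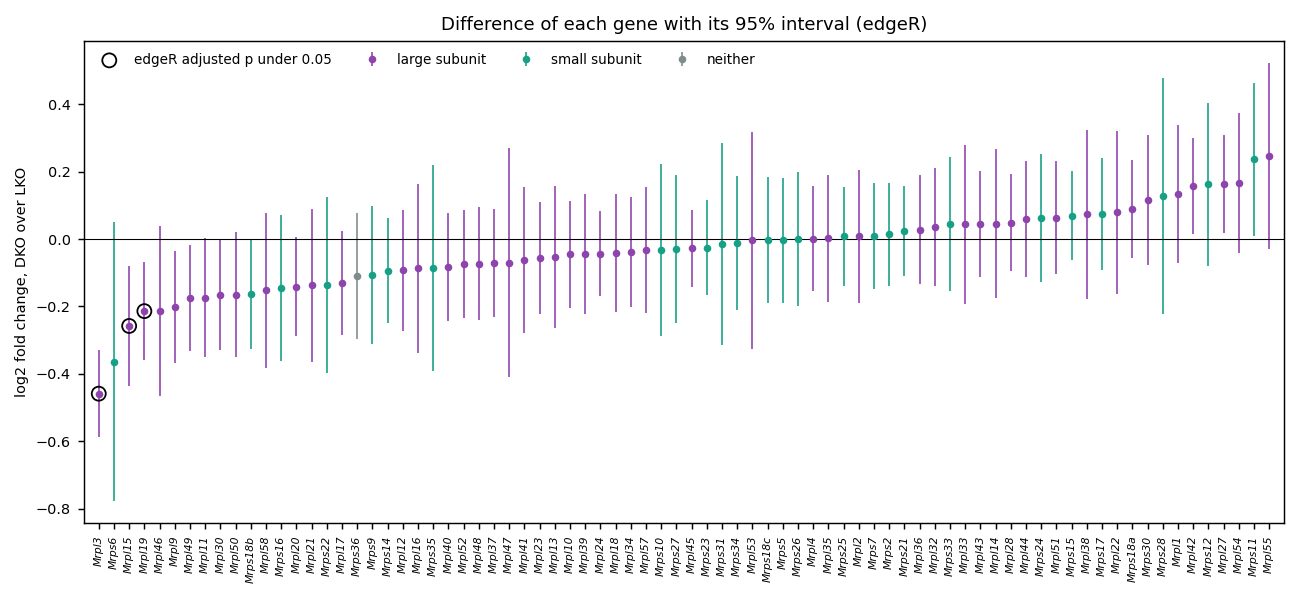
Log2 fold change of each of the 78 genes (DKO over LKO, vertical axis), ordered from lowest to highest. Bars are 95% intervals from edgeR, colours give the subunit, and circles mark the 3 genes called. Mrpl3 sits apart at -0.46, and most other intervals cross 0.

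Some genes separated the libraries completely by genotype. The normalised counts of DKO libraries were all above those of LKO libraries for 5 of the genes and all below for 10. Over all genes tested the shares were 15.1% above and 14.9% below. The 5 separated upward were Mrpl42, Mrpl27, Mrps18a, Mrps11 and Mrpl55, of which edgeR called none. The 10 separated downward held the 3 genes called and 7 that did not pass, among them Mrpl9, Mrpl30, Mrpl49 and Mrps18b.

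Mrpl3 showed the largest difference among the genes of the mitochondrial ribosome. It codes for a large-subunit protein whose bacterial homologue binds the ribosomal RNA next to the peptidyl transferase centre, where peptide bonds are formed. Mrpl3 (NCBI gene 94062, chromosome 9) had 43.68, 38.49 and 39.49 FPKM in DKO macrophages, against 57.64, 52.49 and 58.42 FPKM in LKO macrophages. Each DKO library lay below every LKO library, with a gap wider than the range within either genotype. The reads behind these values were 730, 640 and 657 counts in DKO and 958, 865 and 956 counts in LKO libraries. The mean was 40.6 ± 2.75 FPKM in DKO and 56.2 ± 3.22 FPKM in LKO macrophages (SD, n = 3 each). Its log2 fold change was -0.46 (SE 0.06, edgeR adjusted p = 1.6e-05), a fall of 27.3%. Under all 15 other settings tried, it passed the threshold, with adjusted p between 1.79e-07 and 0.0138. All its counts were whole numbers, it has 1 transcript in the files, and its exons overlap those of no other annotated gene.

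Mrpl19 and Mrpl15 passed the threshold narrowly. Both code for large-subunit proteins with a bacterial homologue. Mrpl19 (NCBI gene 56284, chromosome 6) had 5.78, 6.06 and 5.51 FPKM in DKO macrophages, against 7.04, 6.44 and 6.78 FPKM in LKO macrophages. The genotypes did not overlap, but the gap between them was narrower than the range within either one. Its log2 fold change was -0.21 (SE 0.07, edgeR adjusted p = 0.0426). The call was lost in 11 of 15 other settings, where adjusted p over all 15 ranged from 0.0252 to 0.233, and leaving out any library but LKO 2 ended it (adjusted p = 0.101 without DKO 1, 0.0531 without DKO 2, 0.175 without DKO 3, 0.122 without LKO 1 and 0.0855 without LKO 3). Of the annotated exonic bases of Mrpl19, 39.2% overlap Gcfc2 on the opposite strand. Gcfc2, chosen here after its values were seen, had 2.38, 2.26 and 2.23 FPKM in DKO macrophages, against 3.15, 2.74 and 3.23 FPKM in LKO macrophages, with a log2 fold change of -0.40 (SE 0.13, edgeR adjusted p = 0.0397). The sources used here do not say whether reads were counted by strand, and those of the 2 genes cannot be told apart in the shared stretch. Mrpl19 also carried fractional counts in all 6 libraries, as arises where reads are divided among features.

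Mrpl15 (NCBI gene 27395, chromosome 1) had 8.04, 7.45 and 6.94 FPKM in DKO macrophages, against 8.33, 8.55 and 8.10 FPKM in LKO macrophages. The genotypes were separated by the width of 8.04 in DKO 1 against 8.10 in LKO 3. On counts the log2 fold change was -0.26 (SE 0.09, edgeR adjusted p = 0.0466). The call was lost in 10 of 15 other settings, with adjusted p over all 15 between 0.03 and 0.308, and without DKO 2 (0.108), DKO 3 (0.215), LKO 2 (0.155) or LKO 3 (0.0971). Mrpl15 carried fractional counts in all 6 libraries. The files list 3 transcripts for it, and the transcript length assigned to the gene differed between libraries. That length was 2484.4, 2513.4 and 2472.5 bases in DKO and 2577.7, 2722.7 and 2771.3 bases in LKO libraries. FPKM divides by this length, and with limma on log2(FPKM + 1) the log2 fold change was -0.14 (adjusted p = 0.229). The size of the difference in Mrpl15 therefore moved with the unit by over 1.5 times, while its sign did not.

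The 3 genes of smallest p that did not pass were Mrpl9, Mrpl27 and Mrpl42, 1 with lower and 2 with higher values in DKO. Mrpl9, a large-subunit gene with a bacterial homologue, had 11.91, 12.55 and 12.17 FPKM in DKO macrophages, against 14.42, 14.25 and 13.80 FPKM in LKO macrophages. Its log2 fold change was -0.20 (SE 0.08, edgeR adjusted p = 0.102). Mrpl27 codes for a protein whose bacterial homologue reaches with its end into the peptidyl transferase centre. It had 35.92, 34.87 and 35.56 FPKM in DKO macrophages, against 32.05, 31.56 and 32.05 FPKM in LKO macrophages. Its log2 fold change was 0.16 (SE 0.07, edgeR adjusted p = 0.137). In both genes FPKM varied little within a genotype. The 3 limma fits on FPKM called both, with adjusted p between 0.0351 and 0.0491 for Mrpl9 and between 0.0371 and 0.0487 for Mrpl27. Like Mrpl19 and Mrpl15, both carried fractional counts in all 6 libraries. In each library, 23.2% to 23.6% of all genes listed had a fractional count. Of the 17 mitochondrial ribosomal protein genes with a fractional count in any library edgeR called 2 (Mrpl19 and Mrpl15), or 11.8%. Of the 61 with whole counts it called 1, or 1.64%. Over all genes tested, edgeR called 14.3% in either direction, with 6.88% lower. The part of divided reads in these calls was not tested. Mrpl42, whose product bacteria lack, had 71.88, 62.96 and 64.22 FPKM in DKO macrophages, against 57.28, 59.64 and 62.82 FPKM in LKO macrophages. Its genotypes were all but touching, at 62.96 in DKO 2 and 62.82 in LKO 3, and its log2 fold change of 0.16 (SE 0.07, edgeR adjusted p = 0.142) did not pass in any of the 15 other settings.

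**Figure D2:**
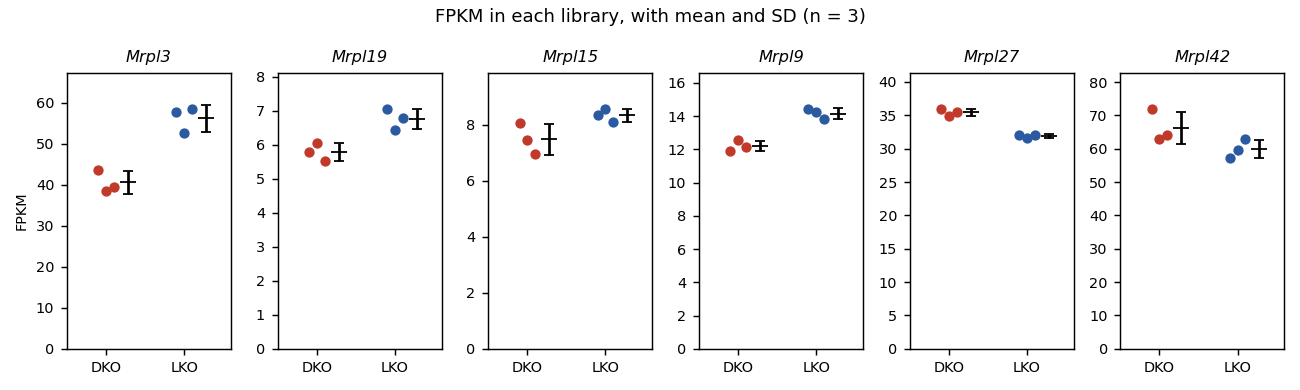
FPKM (vertical axis, from 0) of the 3 genes called and the 3 next by p in each DKO and LKO library, with the mean and SD of 3 libraries beside the points. Mrpl3 shows a clear gap between 43.68 in the highest DKO and 52.49 in the lowest LKO library, whereas the gap is 8.04 against 8.10 for Mrpl15.

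The promoters of Mrpl3, Mrpl9, Mrpl27 and Mrps21 are shown because the first is the gene whose difference held in every setting, the next pair are the genes that limma called in addition, and the last has the highest level. Nuclear genes for mitochondrial proteins are known for promoters that bind the nuclear respiratory factors NRF1 and GABP and other general activators. Each window runs from 250 bases before to 50 bases after the transcription start, 5′ to 3′ on the strand of the gene, from RefSeq on GRCm38.p6. Capitals mark 2 motifs searched on both strands, the ETS core bound by GABP (CCGGAAG, or CTTCCGG on the other strand) and the middle of the NRF1 site (GCATGCG, or CGCATGC on the other strand, which overlap where the site is symmetric).
Mrpl3, chr9:105053018-105053317, plus strand: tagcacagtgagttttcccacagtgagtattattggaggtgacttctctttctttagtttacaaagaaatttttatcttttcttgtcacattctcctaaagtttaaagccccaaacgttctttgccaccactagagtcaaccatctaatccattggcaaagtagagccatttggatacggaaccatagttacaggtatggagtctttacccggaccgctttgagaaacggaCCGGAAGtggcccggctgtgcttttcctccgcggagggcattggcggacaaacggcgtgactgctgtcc
Mrpl9, chr3:94443086-94443385, plus strand: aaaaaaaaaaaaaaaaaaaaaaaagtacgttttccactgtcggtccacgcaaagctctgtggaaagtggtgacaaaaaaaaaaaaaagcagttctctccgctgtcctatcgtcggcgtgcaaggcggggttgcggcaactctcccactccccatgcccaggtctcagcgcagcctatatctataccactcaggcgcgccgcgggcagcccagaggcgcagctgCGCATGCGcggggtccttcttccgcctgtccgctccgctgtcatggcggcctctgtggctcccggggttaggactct
Mrpl27, chr11:94653541-94653840, plus strand: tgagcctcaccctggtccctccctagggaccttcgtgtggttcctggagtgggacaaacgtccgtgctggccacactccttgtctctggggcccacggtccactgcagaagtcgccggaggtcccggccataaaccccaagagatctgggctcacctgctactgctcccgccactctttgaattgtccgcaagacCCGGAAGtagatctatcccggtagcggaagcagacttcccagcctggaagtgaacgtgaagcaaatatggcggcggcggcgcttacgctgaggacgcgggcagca
Mrps21, chr3:95871465-95871764, minus strand: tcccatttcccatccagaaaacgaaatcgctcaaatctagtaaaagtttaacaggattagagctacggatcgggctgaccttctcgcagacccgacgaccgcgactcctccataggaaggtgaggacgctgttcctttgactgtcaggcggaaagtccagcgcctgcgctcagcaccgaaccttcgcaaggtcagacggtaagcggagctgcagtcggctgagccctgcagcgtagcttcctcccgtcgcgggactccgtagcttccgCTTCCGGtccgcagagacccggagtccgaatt
Counted from 1 at the 5′ end of the window, the ETS core starts at base 232 in Mrpl3, at base 196 in Mrpl27 and at base 269 in Mrps21. The NRF1 motif starts at base 224 in Mrpl9, where the matches on both strands overlap, and was not found in the other 3 windows.

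A window was found for 69 of the 78 genes. Those without one were Mrpl4, Mrpl13, Mrpl15, Mrpl19, Mrpl38, Mrpl54, Mrps28, Mrps34 and Mrps35. The ETS core was present in 25 of the 69 windows, or 36.2%, against 19.5% of the windows of 9476 genes tested and 9.1% of all 27025 windows. The NRF1 motif was present in 8 windows, or 11.6%, against 6.7% of genes tested and 3.6% of all windows. The YY1 motif, which reads AAGATGG on either strand, was present in 13 windows, or 18.8%, against 7.7% of genes tested and 6.5% of all windows. At least 1 of these 3 motifs was found in 37 windows, or 53.6%, against 30.4% of genes tested and 17.7% of all windows. Of the other motifs searched, neither had a larger share here than among genes tested, with the TATA motif (TATAAA on either strand) in 5.8% against 6.7% and the E-box (CACGTG, its own reverse complement) in 7.2% against 10.5%. By the ETS core, the median log2 fold change was -0.03 for the 25 genes with it and -0.04 for the 44 without. By the NRF1 motif, it was -0.04 for the 8 genes with it and -0.03 for the 61 without. By the YY1 motif, it was 0.03 for the 13 genes with it and -0.04 for the 56 without. These medians were not tested against each other. Of the genes for factors that bind these motifs, those of GABP, NRF1 and YY1 did not pass the test in DKO against LKO macrophages, with log2 fold changes of -0.16 for Gabpa (edgeR adjusted p = 0.111), 0.06 for Gabpb1 (0.723), -0.17 for Gabpb2 (0.0501), 0.16 for Nrf1 (0.178) and 0.00 for Yy1 (0.993). Myc, whose product binds the E-box, fell (log2 fold change -0.50, edgeR adjusted p = 5.2e-05). A match is a run of letters, not a site shown to be bound.

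The genes spanned a wide range of levels. Mean FPKM over the 6 libraries ran from 4.12 for Mrpl17 to 99.1 for Mrps21, a span of 24.0-fold, with a median of 19.8. By comparison, the median over all genes tested was 9.24 FPKM, and 15 of the 78 genes lay below it. The genes lay between the 31.0 and the 94.0 percentile of genes tested. There were 19 genes under 10 FPKM, 55 between 10 and 50 and 4 above 50. Across the 78 genes the level was lower for longer transcripts (Spearman rho -0.62 across genes, which are not independent replicates and share their libraries and the division by length).

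Mrps21 stood alone at the top. It codes for a small-subunit protein, and it had 100.41, 102.55 and 95.53 FPKM in DKO macrophages, against 93.76, 99.72 and 102.32 FPKM in LKO macrophages. The genotypes overlapped fully (log2 fold change 0.02, SE 0.06, edgeR adjusted p = 0.875). The next was Mrpl52, a large-subunit gene whose protein bacteria lack, with 64.7 ± 4.64 FPKM in DKO and 68.7 ± 2.35 FPKM in LKO macrophages (SD, n = 3 each). Mrpl42 averaged 63.1 FPKM over the 6 libraries and Mrpl20, whose bacterial homologue is needed for the assembly of the large subunit, 62.2 FPKM. The levels of Mrpl52, Mrpl42 and Mrpl20 overlapped between libraries, so their order is not fixed by these data. Below them came Mrpl23, whose bacterial homologue lies at the exit of the peptide tunnel, with 49.7 FPKM, then Mrpl24 with 48.4, Mrpl3 with 48.4 and Mrpl28 with 44.4 FPKM. Of these 4, Mrpl3 changed place with genotype, since it was above Mrpl23 and Mrpl24 in LKO (56.2 FPKM against 50.8 and 49.3) and below both in DKO macrophages (40.6 FPKM against 48.5 and 47.5).

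At the low end were Mrpl17, Mrps6, Mrps31, Mrpl35, Mrpl19 and Mrps25. Mrpl17, a large-subunit gene with a bacterial homologue, averaged 3.92 ± 0.212 FPKM in DKO and 4.32 ± 0.206 FPKM in LKO macrophages (SD, n = 3 each), and its log2 fold change of -0.13 did not pass (edgeR adjusted p = 0.281). Mrps6 codes for a small-subunit protein with a bacterial homologue, and it had 4.94, 3.23 and 3.89 FPKM in DKO macrophages, against 5.65, 5.0 and 4.88 FPKM in LKO macrophages. DKO 1 lay within the LKO range and the other DKO libraries below it, and the log2 fold change of -0.36 had the widest error of all 78 genes (SE 0.20, edgeR adjusted p = 0.264). Mrps6 had 27.3 to 47.66 counts in a library, fractional in all 6. Of its annotated exonic bases, 36.1% overlap Gm49711 and Slc5a3 on the same strand. Mrps31 and Mrpl35 averaged 5.17 and 5.56 FPKM, and Mrps25 averaged 6.27 FPKM, level with Mrpl19. Each of Mrps31, Mrpl35 and Mrps25 differed between the genotypes by less than its own SD.

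**Figure D3:**
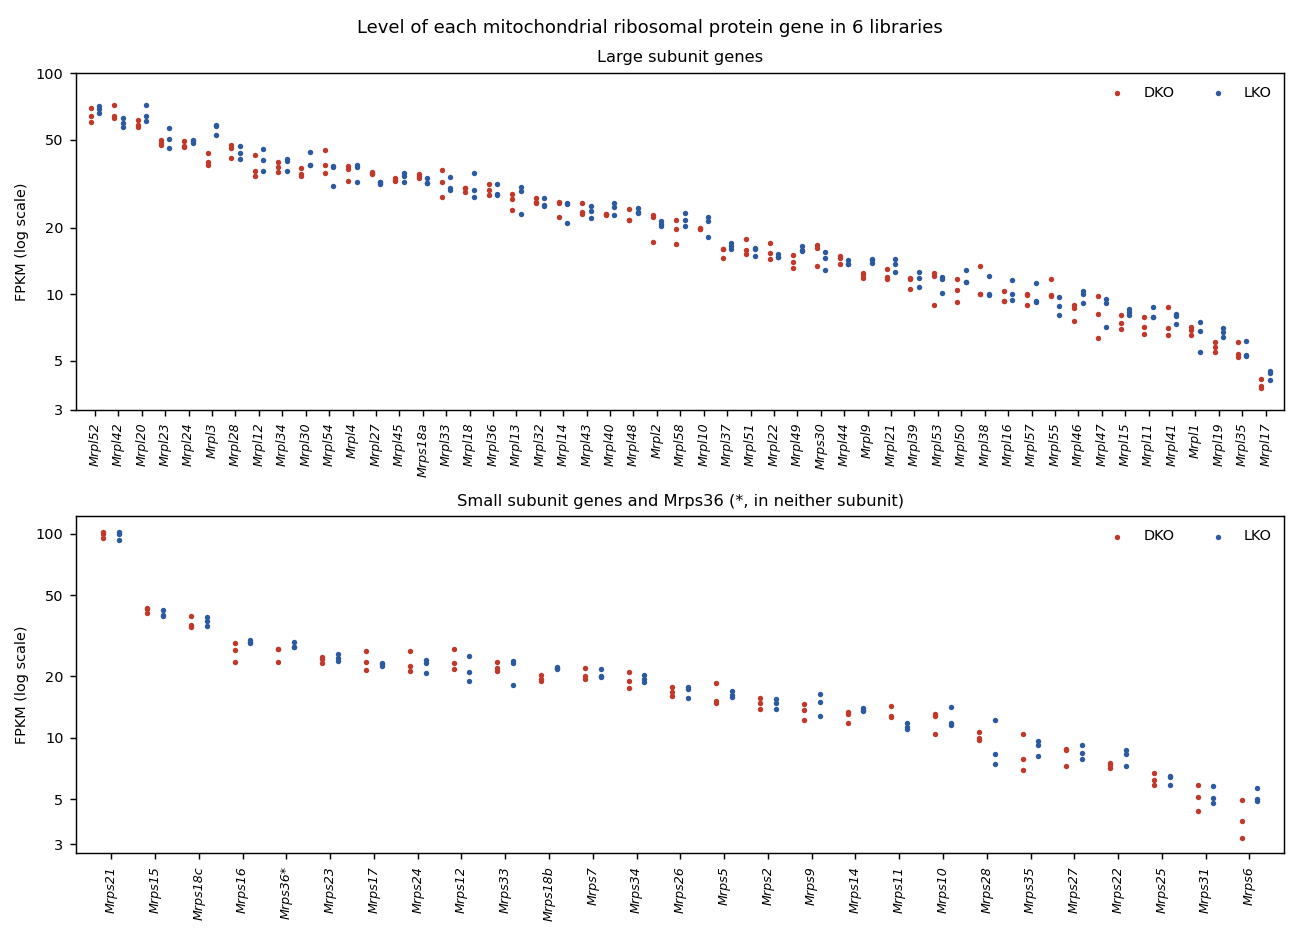
FPKM on a log scale (vertical axis) of the 51 large-subunit genes (upper panel) and of the 26 small-subunit genes with Mrps36 (lower panel), in order of mean level. Each point is 1 library, DKO left and LKO right, and the genotypes overlap for most genes, while Mrpl3 is among the 15 whose libraries separate by genotype in normalised counts.

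Neither subunit nor evolutionary origin split the genes into groups with large differences. Over all genes tested in edgeR, 6.88% fell, 7.42% rose and 25.9% had an unadjusted p under 0.05. Among the 51 large-subunit genes 3 fell and 0 rose (log2 fold change -0.04 at the median), and 2 were higher and 6 lower at an unadjusted p under 0.05. Among the 26 small-subunit genes edgeR, DESeq2 and limma each called 0, with a median of -0.00376 in edgeR, and 1 was higher and 1 lower at an unadjusted p under 0.05. The higher one was Mrps11, with 12.70, 12.86 and 14.37 FPKM in DKO macrophages, against 10.99, 11.80 and 11.34 FPKM in LKO macrophages (log2 fold change 0.24, SE 0.11, edgeR adjusted p = 0.171). The lower one was Mrps18b, with 20.36, 18.90 and 19.33 FPKM in DKO macrophages, against 21.77, 22.05 and 22.29 FPKM in LKO macrophages (log2 fold change -0.16, SE 0.08, edgeR adjusted p = 0.192), and 59.1% of its exonic bases overlap a gene on the opposite strand. Both were named after their values were seen. The 45 genes for proteins in the place of a bacterial one held the 3 edgeR calls and had a median of -0.00385. At an unadjusted p under 0.05, 2 of them were higher and 5 lower. DESeq2 called 1 of the 45 lower, and limma on log2(FPKM + 1) called 2 lower and 1 higher. Among the 51 large-subunit genes DESeq2 and limma called the same numbers. Of the 32 classed as specific to mitochondria none passed in edgeR, DESeq2 or limma, with a median of -0.03 in edgeR, and 1 was higher and 2 lower at an unadjusted p under 0.05. Mrps36, of neither subunit, had 27.38, 23.55 and 27.38 FPKM in DKO macrophages, against 27.80, 29.40 and 27.97 FPKM in LKO macrophages, and did not pass (log2 fold change -0.11, edgeR adjusted p = 0.497).

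The summed level of the 78 genes differed more among DKO libraries than between the genotypes. Summed FPKM was 1860.9, 1725.0 and 1720.4 in DKO libraries, against 1786.1, 1826.8 and 1821.9 in LKO libraries. DKO 1 was thus the highest of all 6 libraries, and DKO 2 and DKO 3 the lowest. The same held as a share of all FPKM in a library. That share was 0.389% in DKO 1, 0.369% in DKO 2 and 0.367% in DKO 3, against 0.379% to 0.386% in LKO libraries. DKO 1 held the highest DKO value for 51 of the 78 genes, while it did so for 33.3% of all genes tested. Relative to the LKO mean, the median difference over the genes in log2 normalised counts was 0.03 in DKO 1, -0.07 in DKO 2 and -0.05 in DKO 3, beside -0.02 to 0.01 in the LKO libraries. Without DKO 1 the median log2 fold change of the 78 genes was -0.06, and 2 fell, Mrpl3 and Mrpl15.

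The oxidative phosphorylation subunits, the nuclear-coded partners of what the mitochondrial ribosome makes, had values close to these. Over all genes tested, 6.88% fell, 7.42% rose and 25.9% had an unadjusted p under 0.05. Of 73 subunits, 2 fell, or 2.74%, and 0 rose (log2 fold change -0.02 at the median), and 1 was higher and 7 lower at an unadjusted p under 0.05. The 2 were Atp5o, a subunit of the stalk of ATP synthase (-0.19, SE 0.05, edgeR adjusted p = 0.0177), and Uqcrh, the hinge protein of complex III (-0.21, SE 0.06, edgeR adjusted p = 0.0343). Their summed FPKM was 7371, 6861 and 6881 in DKO and 7260, 7296 and 7276 in LKO libraries, again with DKO 1 highest and the other DKO libraries lowest. As a share of all FPKM in a library, DKO 1 was level with the LKO libraries. That share was 1.54% in DKO 1 and in each LKO library, and 1.47% in DKO 2 and DKO 3. The count of 2 was 4 without DKO 1, 1 without DKO 2, DKO 3 or LKO 3, 0 without LKO 2, and 5 with upper-quartile factors. Proteins of the cytosolic ribosome differed more. Of 77 genes tested, 54 fell and 0 rose, and the log2 fold change was negative in all 77, with a median of -0.18. Their summed FPKM was 49602, 46180 and 45781 in DKO libraries, against 54366, 53522 and 53481 in LKO libraries, and the genotypes did not overlap. The count of 54 was 35 without DKO 2, 31 without DKO 3 and 11 with limma on unfiltered values, and all of its medians were between -0.23 and -0.16. No test of the difference between the 2 kinds of ribosome was made, and genes of the cytosolic ribosome have many processed copies in the genome among which reads can be split.

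**Figure D4:**
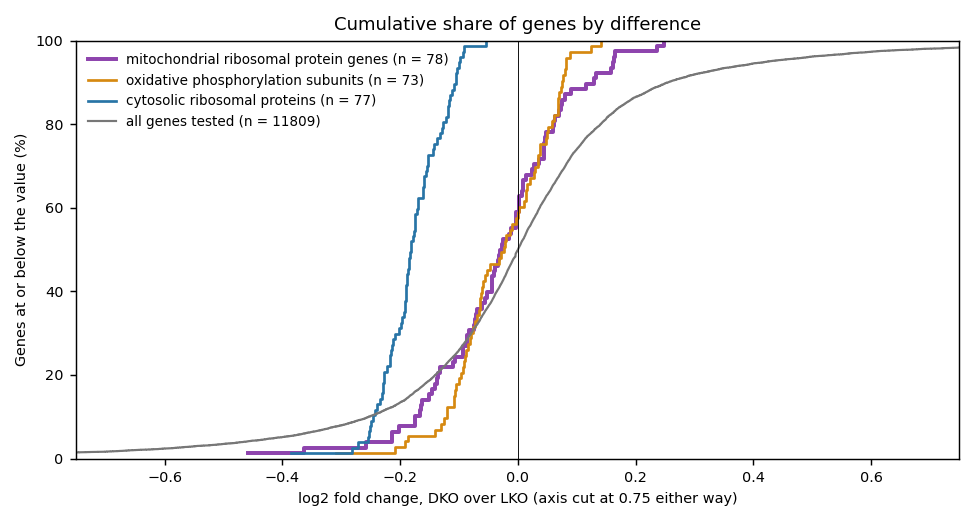
Share of genes (vertical axis, in percent) at or below each log2 fold change (DKO over LKO, horizontal axis, cut at 0.75 either way). The lines of the 78 mitochondrial ribosomal protein genes and the 73 oxidative phosphorylation subunits cross 0 near their middle, with medians of -0.03 and -0.02, and that of the 77 cytosolic ribosomal proteins lies wholly to the left of 0, with a median of -0.18.

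**Figure D5:**
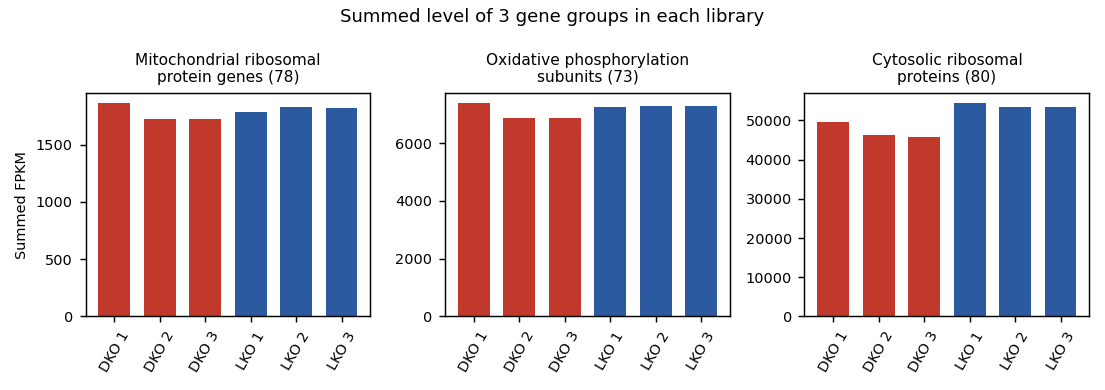
Summed FPKM (vertical axis, from 0) of 3 gene groups in each DKO and LKO library. DKO 1 is the highest bar for the mitochondrial ribosomal protein genes (1860.9) and the oxidative phosphorylation subunits (7371), whereas all DKO bars of the cytosolic ribosomal proteins are below those of LKO. As a share of all FPKM in a library, the oxidative phosphorylation subunits were at 1.54% in DKO 1 and in each LKO library.

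Other parts of mitochondrial translation showed few differences. The edgeR counts here and in the following paragraphs stand beside 6.88% lower and 7.42% higher over all genes tested. At an unadjusted p under 0.05 the share over all genes tested was 25.9%. Of the 5 proteins of the mitochondrial ribosome that carry other names (Dap3, Ptcd3, Chchd1, Aurkaip1 and Gadd45gip1), edgeR, DESeq2 and limma called 0, and 0 were under an unadjusted p of 0.05. Of 27 factors that assemble the mitochondrial ribosome or modify its RNA, 1 fell and 0 rose (log2 fold change -0.01 at the median), and 1 was higher and 4 lower at an unadjusted p under 0.05. The gene called was C1qbp, a matrix protein needed for mitochondrial translation. C1qbp had 34.81, 32.70 and 30.25 FPKM in DKO macrophages, against 39.97, 40.08 and 40.20 FPKM in LKO macrophages. The genotypes did not overlap, the log2 fold change was -0.29 (SE 0.07, edgeR adjusted p = 0.00373), and it passed under all 15 other settings. Of 15 initiation, elongation, release and membrane insertion factors, among them the elongation factor gene Tufm and the messenger RNA stabiliser Lrpprc, edgeR, DESeq2 and limma called 0, with 1 lower at an unadjusted p under 0.05 and a median of -0.08 in edgeR.

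Among 21 mitochondrial aminoacyl-tRNA synthetases, the enzymes that load transfer RNAs, 1 fell and 0 rose (log2 fold change -0.09 at the median), and 3 were lower at an unadjusted p under 0.05. The gene called was Gars, for glycine, which serves the cytosol as well. Gars averaged 20.5 ± 0.701 FPKM in DKO and 23.7 ± 1.86 FPKM in LKO macrophages (SD, n = 3 each; log2 fold change -0.20, SE 0.07, edgeR adjusted p = 0.048). It did not pass in DESeq2 or limma, and its call was lost in 11 of the 15 other settings, among them the removal of any library but LKO 3. Of 14 tested genes of mitochondrial DNA maintenance and transcription, edgeR, DESeq2 and limma called 0, with 1 lower at an unadjusted p under 0.05 and a median of -0.05 in edgeR. Mitochondrially coded genes were not analysed here.

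Among 11 tested regulators of mitochondrial biogenesis, Myc fell and 0 rose (log2 fold change -0.14 at the median). At an unadjusted p under 0.05, 1 was higher (Nrf1) and 6 lower (Myc, Gabpb2, Gabpa, Esrra, Pprc1 and Ppargc1b). These are 7 of the 11, where 25.9% of all genes tested were under that value. Normalised counts separated the libraries by genotype for 54.5% of the 11, against 30.0% of all genes tested. Myc, a transcription factor that drives genes of ribosome production, had 9.05, 9.74 and 8.86 FPKM in DKO macrophages, against 13.67, 12.56 and 13.15 FPKM in LKO macrophages. The genotypes were far apart, with a log2 fold change of -0.50 (SE 0.07, edgeR adjusted p = 5.2e-05), and Myc passed under all 15 other settings. Ppargc1a, the coactivator of mitochondrial biogenesis in muscle and fat, was listed at 0.03 to 0.05 FPKM in all libraries and was too low to test.

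The genes are spread over the genome. They lie on 17 chromosomes, with 11 on chromosome 11, and 4 on chromosome 5, where Aldh2 lies (Mrpl1, Mrpl33, Mrps17 and Mrps18c, none of which passed). Head-to-head neighbours were common, since 23 of the 78 genes, or 29.5%, start within 1000 bases of a protein-coding gene that runs the other way, against 12.7% of 11117 protein-coding genes tested. Of these neighbours 22 were tested, and 1 fell, 0 rose and 21 did not pass, beside 6.88% lower and 7.42% higher over all genes tested. The neighbour that fell was Ncapd2, a condensin subunit gene next to Mrpl51 (log2 fold change -0.35, edgeR adjusted p = 0.00398), while Mrpl51 itself had a log2 fold change of 0.06 and did not pass. In all, 22 of the 78 genes have exons that overlap a gene on the opposite strand, 7 of them over more than 20% of their exonic bases. Of these 7, Mrpl19 was the one called. Exons of Mrpl33, Mrpl51, Mrpl53, Mrps6 and Mrps18c overlap a gene on the same strand, and edgeR called none of these. For Mrpl53 the overlap, with Gm42688, covers 100% of its exonic bases. Overlaps on either strand were counted for the 78 genes only, so no share over all genes tested stands beside them.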

How the data were processed

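Per the file headers, each deposited file gives an expected count, a transcript length and an FPKM value per NCBI gene. The expected count is what the authors estimated as a gene's reads, without scaling, and the deposited FPKM values are scaled to length and library size. The submitters' processing notes name Bowtie 0.12.2 and mm8. Neither counting tool nor strand setting is given in the sources used here. Genes absent from a file count as 0.

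Symbols came from a RefSeq table of GRCm38.p6, which matched 16832 of 16871 gene numbers, and overlaps and neighbours from GENCODE on GRCm38. The members, the lists and the naming rule were chosen with earlier results of these data known. Named are the genes called, the 3 next by p, the 8 highest and 6 lowest by mean FPKM, Aldh2, and up to 4 called genes of each other list. Other genes were named after their values were seen. A gene of the lists is not reported here. Expected counts, rounded, were tested in edgeR 4.0.16 (R 4.3.3, filterByExpr, TMM, no block, Benjamini-Hochberg over 11809 genes). Percentages of genes called are over all genes tested. Standard errors come from the fold change and its F statistic. Alternatives were DESeq2 1.42.0, other scaling factors, no filter, a replicate block, limma 3.58.1 on log2(FPKM + 1) or log2(FPKM + 0.1), for genes of at least 1 FPKM in 3 libraries or all genes, and leaving out each library. Fold changes from limma understate those of low genes. The edgeR, DESeq2 and limma scripts were tested on simulated data. Libraries of a genotype differed by more than sampling noise, so none was taken as a duplicate deposit of another, which does not show separate cultures or animals. The settings were applied to the oxidative phosphorylation and cytosolic ribosome lists after values were seen. Motif and neighbour searches are descriptions with no test.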

Additional observations from a re-analysis of the deposited data

How the results depend on the processing

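The absence of called rises held in the 12 other settings on counts, and 1 gene, Mrpl27, was called higher in each of the 3 limma fits on FPKM. The count of genes that fell, 3 in edgeR, was 1 with DESeq2, 1 without a count filter and 1 with the replicate block, and in each of these it was Mrpl3. It was 2 in the limma fits (Mrpl3 and Mrpl9), and 3 with DESeq2 size factors, upper-quartile factors or total counts. Leaving out single libraries gave 1 to 2, with 1 without DKO 2, DKO 3 or LKO 3. The median log2 fold change was between -0.06 (without DKO 1) and -0.01 (without LKO 2). No direction turned for any gene followed through the settings. Of these genes, Mrpl3, C1qbp, Myc and Aldh2 passed in every setting, Mrpl42 in none, and the calls of Mrpl19, Mrpl15 and Gars were lost in 11, 10 and 11 of 15 settings. The cause was not tested.

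The replicate numbers did not pair the libraries, as deviations from the genotype means had correlations of 0.02, -0.06 and -0.03 for numbers 1, 2 and 3. With the block, 810 genes were higher and 743 lower over all genes, beside 876 and 813 without it. Over all genes, DESeq2 called 602 higher and 539 lower, limma 561 and 569, with the smaller pseudocount 557 and 562, and without a filter 425 and 382. At 27.3 to 958 counts per gene and library, the 95% interval lay within 1.2-fold for 37 of the 78 genes.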
